A study of Mus musculus with 2 samples.

Results

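Ifng, Tbx21, Eomes, Il12rb2 and Stat4 are 5 genes chosen by name out of 32285 in the tables, and they are described here across 12 lymphoid cell types of neonatal mouse skin. The cells came from wild-type C57BL/6 mice at postnatal day 15 that received either an isotype control antibody or anti-Gr-1 every other day from day 4 to day 14. Anti-Gr-1 binds surface proteins of neutrophils and monocytes and was used to deplete monocytes. Skin was digested with collagenase, live CD45+ leukocytes were sorted, and 4 to 7 mice were pooled per treatment for droplet-based sequencing of transcript 3′ ends. Each treatment is therefore 1 pool and 1 library, so no difference between the treatments was tested. Intervals in parentheses are exact 95% intervals that cover counting error only: Poisson for a level, conditional for a ratio and Clopper-Pearson for a share.

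Type 1 immunity is carried by lymphocytes that make interferon gamma, the cytokine encoded by Ifng. The transcription factors T-bet (Tbx21) and Eomesodermin (Eomes) drive Ifng in natural killer (NK) cells, CD8 T cells and T helper 1 cells. Interleukin-12 made by myeloid cells binds a receptor whose signalling chain is Il12rb2, and the receptor activates Stat4. Mouse skin also holds dendritic epidermal T cells, γδ T cells that live among keratinocytes, and dermal γδ T cells that make interleukin-17.

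Ifng (ENSMUSG00000055170) lies at chr10:118441046-118445892 on the plus strand, with 4 exons. Tbx21 (ENSMUSG00000001444) lies at chr11:97098071-97115331 on the minus strand, with 6 exons, and Eomes (ENSMUSG00000032446) at chr9:118478212-118486132 on the plus strand, with up to 6 exons. Il12rb2 (ENSMUSG00000018341) lies at chr6:67291318-67376188 on the minus strand, with up to 16 exons, and Stat4 (ENSMUSG00000062939) at chr1:51987148-52107189 on the plus strand, with up to 25. All of these positions are on mm10 in the GENCODE M21 annotation, and all 5 genes are protein coding. The promoters of Ifng and Il12rb2 are shown because both genes belong to the Stat4 pathway and because each holds a match to the STAT motif TTCNNNGAA, the kind of site that STAT proteins bind, in the 250 bases before its start. Both are RefSeq sequences of GRCm38.p6, written 5′ to 3′ on the gene's strand, with the match in capitals.

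Ifng promoter, chr10:118440796-118441045, plus strand: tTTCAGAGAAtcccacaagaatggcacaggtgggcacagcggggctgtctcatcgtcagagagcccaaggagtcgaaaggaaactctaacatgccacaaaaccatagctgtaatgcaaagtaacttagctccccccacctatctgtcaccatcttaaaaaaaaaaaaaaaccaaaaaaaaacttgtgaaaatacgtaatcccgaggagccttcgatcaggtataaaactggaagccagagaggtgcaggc

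Il12rb2 promoter, chr6:67376189-67376438, minus strand: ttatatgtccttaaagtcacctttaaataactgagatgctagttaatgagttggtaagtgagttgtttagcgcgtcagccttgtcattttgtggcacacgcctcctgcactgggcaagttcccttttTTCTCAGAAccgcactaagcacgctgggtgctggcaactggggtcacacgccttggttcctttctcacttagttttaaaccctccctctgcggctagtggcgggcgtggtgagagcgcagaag

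The Ifng match begins 249 bases before the start, at the edge of the window, and the Il12rb2 match begins 123 bases before it. Searched on both strands, the motif occurs in 2306 of 32851 RefSeq windows of the same length (7.02%), and the motif reads the same on both strands. The T-box letters TCACACC were found in 3.33% of windows and in none of the member windows. The windows of Tbx21, Eomes and both starts of Stat4 held no match to either motif, which says only that these letters are not in them.

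The deposited tables held 21311 isotype control barcodes with 125253392 UMIs (unique molecular identifiers, 1 per captured transcript) and 9110 anti-Gr-1 barcodes with 85142470 UMIs. After filters and removal of doublets, 16487 and 7574 cells were kept, with median depths of 5073 and 7894 UMIs. Of these, 5697 isotype control and 3880 anti-Gr-1 cells fell into a lymphoid gate set by marker UMIs. The isotype control pool held 5714 cells with Xist alone and 5373 with Y-linked transcripts alone, against 1441 and 4347 in the anti-Gr-1 pool. The 2 libraries shared 44 barcodes among kept cells. Genes that set the gates were present in them. Ncr1 was at 265 and 282 CPM in NK cells and Foxp3 at 533 and 517 CPM in regulatory T cells. Cd8a was at 353 and 416 CPM in CD8 T cells and Cd163l1 at 762 and 794 CPM in γδ type 17 T cells. Lyz2, a myeloid gene, is among the markers that the lymphoid gates limit, and was at 84.2 and 44.1 CPM in dendritic epidermal T cells. Macrophages had 4923 and 6363 CPM of it. These levels follow in part from the gating and are no independent check of it. Levels are given in CPM, the usual depth-scaled unit, from a gene's share of the summed UMIs of a gate. Mast cell, macrophage and type 1 and type 2 dendritic cell gates serve as the level of free RNA. That their cells make no Ifng, Tbx21 or Eomes of their own was assumed and not tested. A cell entered these gates only with at most 1 UMI of the T, NK and B cell markers summed. Cells with more lymphocyte RNA were thus left out, so this level may lie below that of free RNA in other cells.

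**Figure D1:**
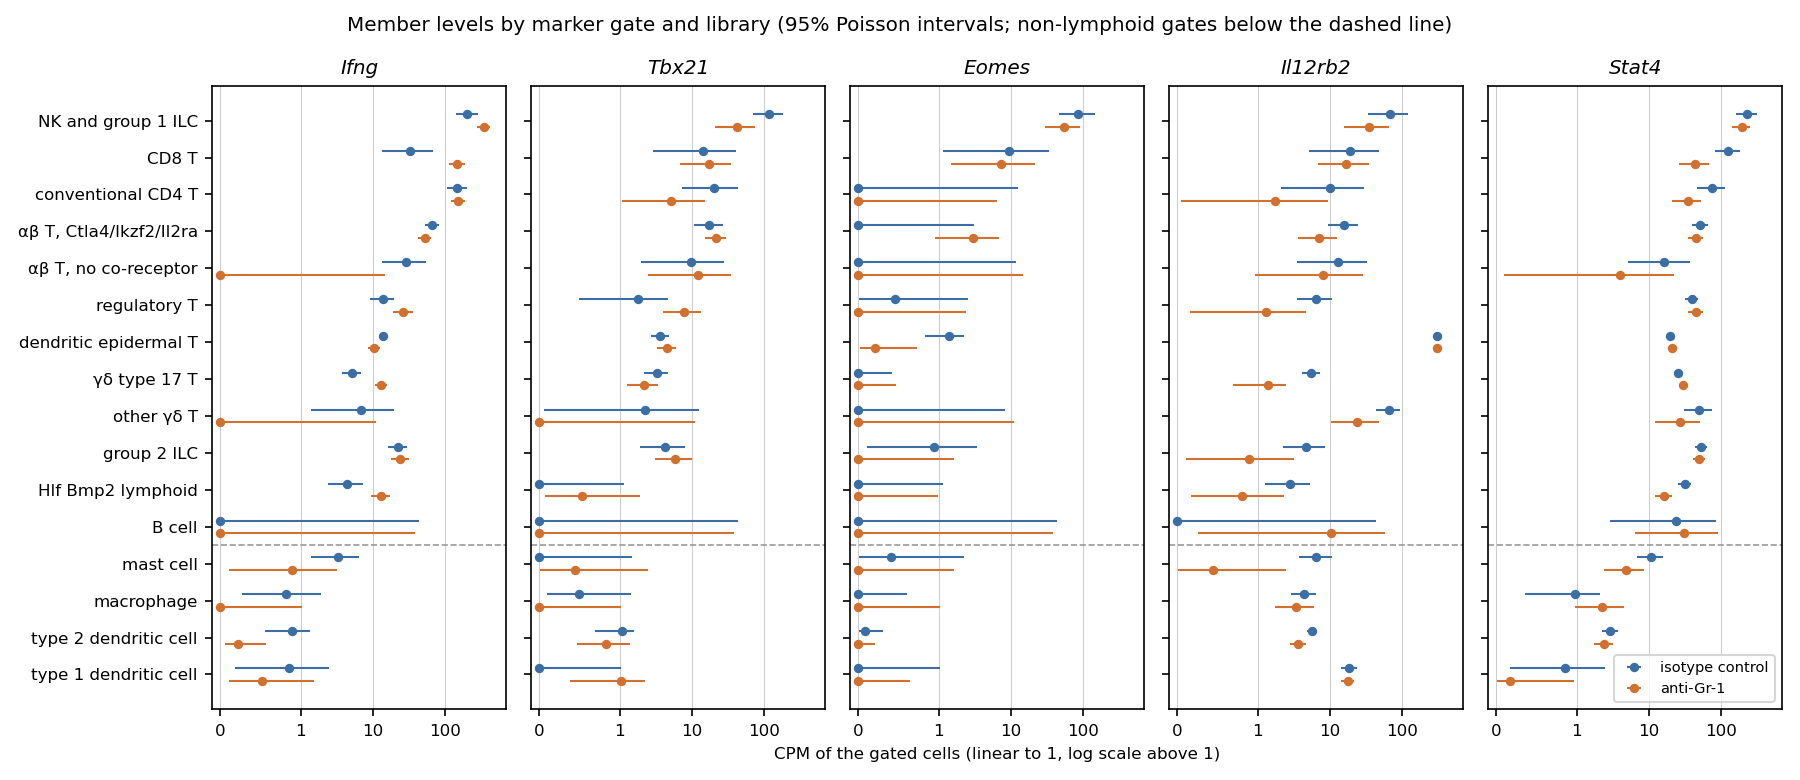
Level of each gene in CPM (x axis, linear to 1 and logarithmic above) in 12 lymphoid and 4 non-lymphoid marker gates (y axis) in the isotype control library (blue) and the anti-Gr-1 library (orange), with lines for the 95% Poisson interval. NK cells have the highest level of Ifng, Tbx21, Eomes and Stat4 in both libraries, while Il12rb2 is highest in dendritic epidermal T cells at 304 and 302 CPM.

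Ifng was highest in the gate of NK and group 1 innate lymphoid cells, followed by conventional CD4 T cells. NK cells held 33 Ifng UMIs in 26 isotype control cells (203 CPM, 140 to 286) and 89 in 27 anti-Gr-1 cells (343 CPM, 276 to 422). Conventional CD4 T cells held 44 UMIs in 47 cells (148 CPM) and 88 in 70 cells (151 CPM). CD8 T cells held 7 UMIs in 29 cells (32.9 CPM) and 61 in 37 cells (148 CPM). In the isotype control library the NK and CD4 intervals overlapped, and CD8 T cells stood below CD4 T cells. In the anti-Gr-1 library CD4 and CD8 T cells overlapped, and NK cells stood above both.

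The other αβ T cell gates ranged widely. αβ T cells with Ctla4, Ikzf2 or Il2ra UMIs and no Foxp3 had 66.3 CPM (isotype control) and 52.1 CPM (anti-Gr-1). Regulatory T cells, gated on Foxp3, had 13.7 and 26.4 CPM. αβ T cells with no co-receptor UMI had 28.9 CPM from 9 UMIs and 0 in 29 anti-Gr-1 cells, which allows up to 14.8 CPM. These values place regulatory T cells below the other αβ T cells gated on Ctla4, Ikzf2 or Il2ra in both libraries, with intervals that do not overlap.

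Dendritic epidermal T cells were at 14.0 (12.04 to 16.2) and 10.3 (8.43 to 12.6) CPM of Ifng. γδ type 17 T cells were at 5.12 (3.73 to 6.85) and 13.2 (10.8 to 15.9) CPM, and group 2 innate lymphoid cells at 22.0 and 24.0 CPM. Lymphoid cells gated on at least 2 UMIs of Hlf and Bmp2 summed, with no Trac, Cd3d or Cd3e UMI but with Trdc at 65.2 and 73.3 CPM, had 4.37 and 12.8 CPM of Ifng, and B cells held no Ifng UMI in 23 and 17 cells. The non-lymphoid gates gave 0.816 to 3.26 CPM (isotype control) and 0 to 0.887 CPM (anti-Gr-1). In cells thinned to 2000 UMIs, pooled non-lymphoid cells held Ifng in 0.112% and 0.0944% of cells, against 0.818% and 0.758% of dendritic epidermal T cells.

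Ifng UMIs sat in few cells. Over all gated lymphoid cells, 157 isotype control and 144 anti-Gr-1 cells held any (2.76% and 3.71%). Of these, 15 and 19 cells with 10 UMIs or more carried 47.5% and 57.0% of the gated Ifng UMIs, and the highest cell held 32 and 47. Il12rb2 was spread differently, with 1730 and 1156 positive cells, of which 14 and 13 reached 10 UMIs and carried 3.62% and 5.11% of its gated UMIs.

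**Figure D2:**
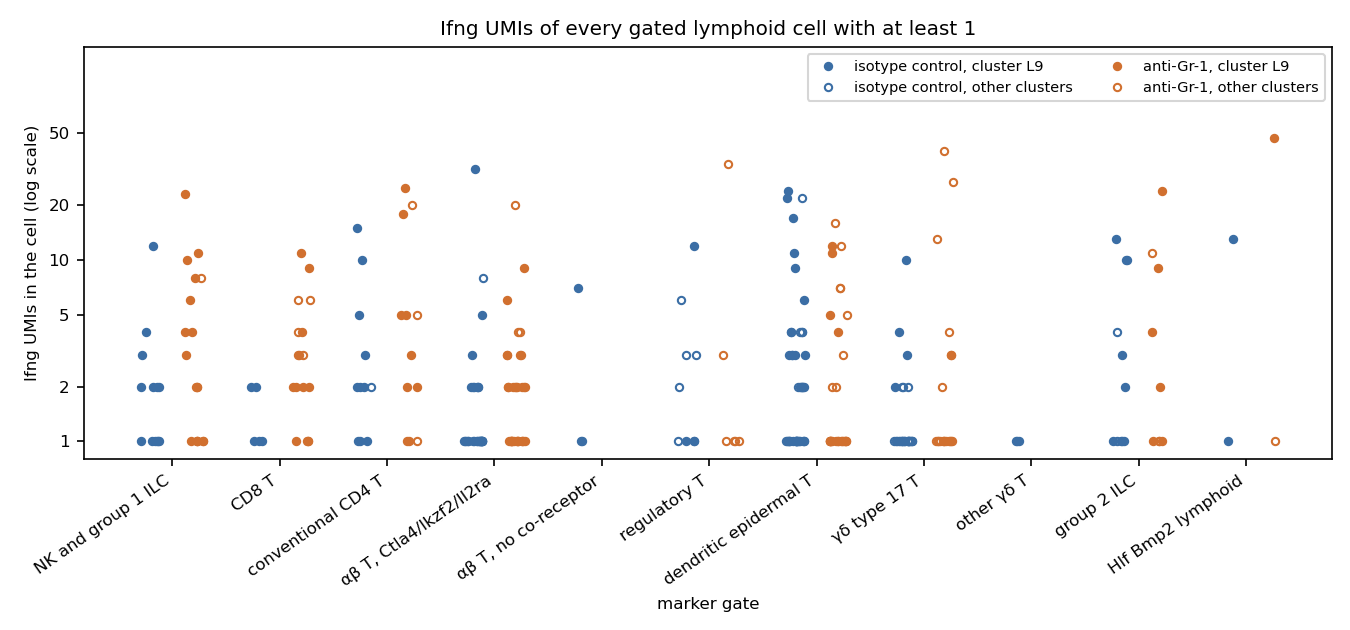
Ifng UMIs of each gated lymphoid cell that holds at least 1 (y axis, log scale) by marker gate (x axis), in blue for the isotype control and orange for the anti-Gr-1 library, with filled points for cells of cluster L9 and open points for cells of other clusters. In the Hlf Bmp2 gate a single cell with 13 UMIs and a single cell with 47 stand above the rest, and in γδ type 17 T cells of the anti-Gr-1 library 3 cells hold 40, 27 and 13.

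Most Ifng transcripts came from 1 lymphoid cluster that spanned the gates. The 5 genes were left out when cells were clustered, and the cluster called L9 here mixed NK and T cells, was led by Ms4a4b, Ifng, Cd40lg, Ccl5 and Cd28, and was given no type name. L9 was picked as the cluster with the most Ifng UMIs, so a higher Ifng level inside it is favoured by that choice. It held 452 isotype control cells (2.74% of kept cells) and 352 anti-Gr-1 cells (4.65%). These cells carried 69.6% and 60.6% of all Ifng UMIs, at 247 and 184 CPM, with Ifng found in 35.8% and 34.7% of them. They also carried 67.0% and 91.7% of Eomes, 42.6% and 48.3% of Tbx21 and 20.01% and 19.3% of Stat4 UMIs, but only 1.99% and 1.42% of Il12rb2.

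The cluster cut across the gates. In the dendritic epidermal T cell gate, 39 of 2421 isotype control cells lay in L9 and held 118 of the 179 Ifng UMIs (337 CPM). The 2382 cells outside it held 61 (4.91 CPM, 3.76 to 6.31). In the anti-Gr-1 library 16 such cells held 36 of 102 UMIs (262 CPM), and the other 1448 held 66 (6.79 CPM, 5.25 to 8.64). The L9 cells of this gate had other levels of several receptor and cytotoxic genes than the rest of it, some higher and some lower. Trdv4, a receptor segment that dendritic epidermal T cells carry, was found in 61.5% and 37.5% of them, against 92.9% and 94.1% outside. Gzma, which encodes granzyme A, stood at 746 and 1018 CPM, against 0.886 and 2.16, and Ncr1, the NK receptor NKp46, at 54.3 and 36.3 CPM, against 0.483 and 0.411. Each was found in 23.1% and 12.5% of the L9 cells. Prf1, which encodes perforin, was lower in the L9 cells, at 237 and 153 CPM against 473 and 428. The markers that set this gate went both ways. The receptor gene Klrd1 was lower, at 532 and 494 CPM against 750 and 837, as were Fcer1g and Tcrg-V5. Klre1 was higher, at 60.0 and 65.4 CPM against 4.19 and 5.66, as was Klrc1, at 97.2 and 153 CPM against 38.8 and 47.3. The identity of these cells was not tested.

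Among group 2 innate lymphoid cells the split was similar. The 27 isotype control cells in L9 held 42 of 47 Ifng UMIs, and the 15 anti-Gr-1 cells held 41 of 54. Outside L9 the gate was at 2.52 and 6.11 CPM. Il5, a cytokine of group 2 innate lymphoid cells, was at 6.63 and 8.48 CPM in the L9 cells and at 240 and 144 CPM in the others. Conventional CD4 T cells of the anti-Gr-1 library differed from this pattern, with 153 CPM inside L9 and 148 outside. In γδ type 17 T cells of the same library L9 held 7 of 104 UMIs, at 30.2 CPM inside and 12.6 outside.

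**Figure D3:**
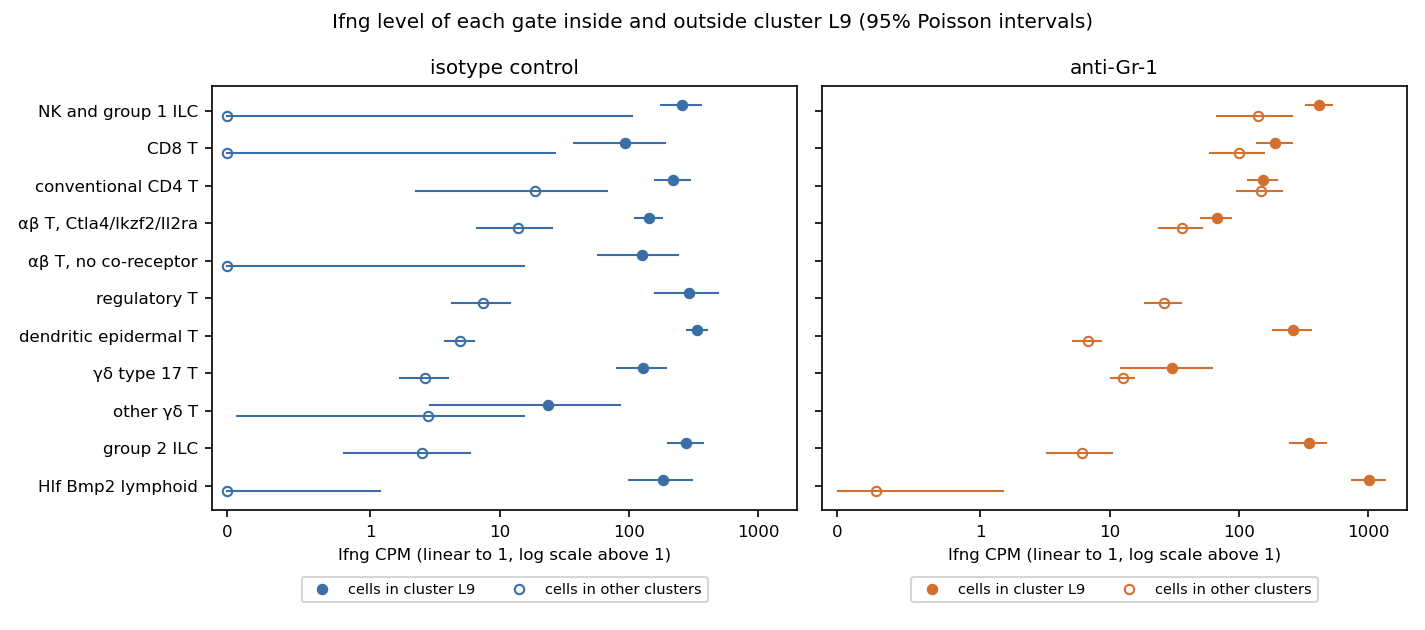
Ifng level in CPM (x axis, linear to 1 and logarithmic above) of the cells of each marker gate (y axis) that lie in cluster L9 (filled) or in other clusters (open), with 95% Poisson intervals, in the isotype control library (left) and the anti-Gr-1 library (right). L9 was picked for its Ifng UMIs, which favours higher levels inside it. In the isotype control library each gate shown has a higher value inside L9. The intervals of other γδ T cells overlap there, at 23.7 CPM inside and 2.78 outside. In the anti-Gr-1 library conventional CD4 T cells stand at 153 CPM inside and 148 outside. No L9 cells of regulatory T cells were found in the anti-Gr-1 library, and αβ T cells without co-receptor and other γδ T cells had no Ifng UMI there.

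Tbx21 followed the NK gate. It stood at 117 CPM (70.5 to 183, 19 UMIs) in isotype control NK cells and at 42.4 CPM (21.2 to 75.9, 11 UMIs) in the anti-Gr-1 library. αβ T cells with Ctla4, Ikzf2 or Il2ra had 17.4 and 21.9 CPM, CD8 T cells 14.1 and 17.0 CPM, and conventional CD4 T cells 20.2 and 5.16 CPM. Levels of 3.68 and 4.56 CPM were found in dendritic epidermal T cells and of 3.30 and 2.15 CPM in γδ type 17 T cells, against a highest non-lymphoid level of 1.06 and 1.05 CPM, although the γδ type 17 interval of the anti-Gr-1 library (1.25 to 3.44) overlapped that of type 1 dendritic cells (0.384 to 2.28). Regulatory T cells had 1.82 and 7.73 CPM. In the isotype control library the NK interval lay above that of each αβ T cell gate, and regulatory T cells (0.497 to 4.67) lay below conventional CD4 T cells (7.40 to 43.9) and αβ T cells with Ctla4, Ikzf2 or Il2ra (10.8 to 26.6). In the anti-Gr-1 library NK cells also overlapped the next gate.

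Eomes was the rarest of the genes, with 103 isotype control and 36 anti-Gr-1 UMIs in all kept cells. NK cells held 14 UMIs in each library (86.3 and 54.0 CPM), and CD8 T cells held 2 and 3 (9.41 and 7.30 CPM), each time in 1 cell. No Eomes UMI was found in conventional CD4 T cells, which allows up to 12.4 and 6.35 CPM, or in γδ type 17 T cells, which allows up to 0.420 and 0.467 CPM. Only 18 and 2 UMIs were found in dendritic epidermal T cells (1.41 and 0.203 CPM).

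Il12rb2, by contrast, was concentrated in 1 γδ T cell type. Dendritic epidermal T cells held 3876 isotype control UMIs (304 CPM, 294 to 313) and 2974 anti-Gr-1 UMIs (302 CPM, 291 to 313), in 66.3% and 76.0% of cells, or 40.6% and 41.3% after thinning to 2000 UMIs. They supplied 74.3% and 85.9% of all Il12rb2 UMIs, from 14.7% and 19.3% of the kept cells. NK cells followed at 67.8 and 34.7 CPM and other γδ T cells at 65.4 and 24.0 CPM. CD8 T cells had 18.8 and 17.0 CPM, close to the type 1 dendritic cells at 18.5 and 17.8 CPM. Whether the level of type 1 dendritic cells is free RNA was not tested. Mast cells, macrophages and type 2 dendritic cells ranged from 4.41 to 6.52 CPM (isotype control) and from 0.443 to 3.66 CPM (anti-Gr-1). γδ type 17 T cells had 5.57 and 1.39 CPM and regulatory T cells 6.39 and 1.29 CPM. Both lie within that range, so they are not read as expression. The interval of dendritic epidermal T cells lay above that of every other gate in both libraries.

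Stat4 was the most even of the genes. NK cells had 228 (161 to 314) and 193 (143 to 254) CPM, CD8 T cells 127 and 43.8 CPM, and conventional CD4 T cells 74.0 and 34.4 CPM. Group 2 innate lymphoid cells had 53.4 and 49.4 CPM and regulatory T cells 39.2 and 44.4 CPM. γδ type 17 T cells had 25.2 and 29.99 CPM, and dendritic epidermal T cells 19.5 and 21.3 CPM. Both stood above mast cells, the highest non-lymphoid gate, at 10.6 and 4.88 CPM. The anti-Gr-1 interval of γδ type 17 T cells (26.3 to 34.1) lay above that of dendritic epidermal T cells (18.5 to 24.4), whereas in the isotype control library the intervals of 22.0 to 28.8 and 17.2 to 22.1 touched.

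**Figure D4:**
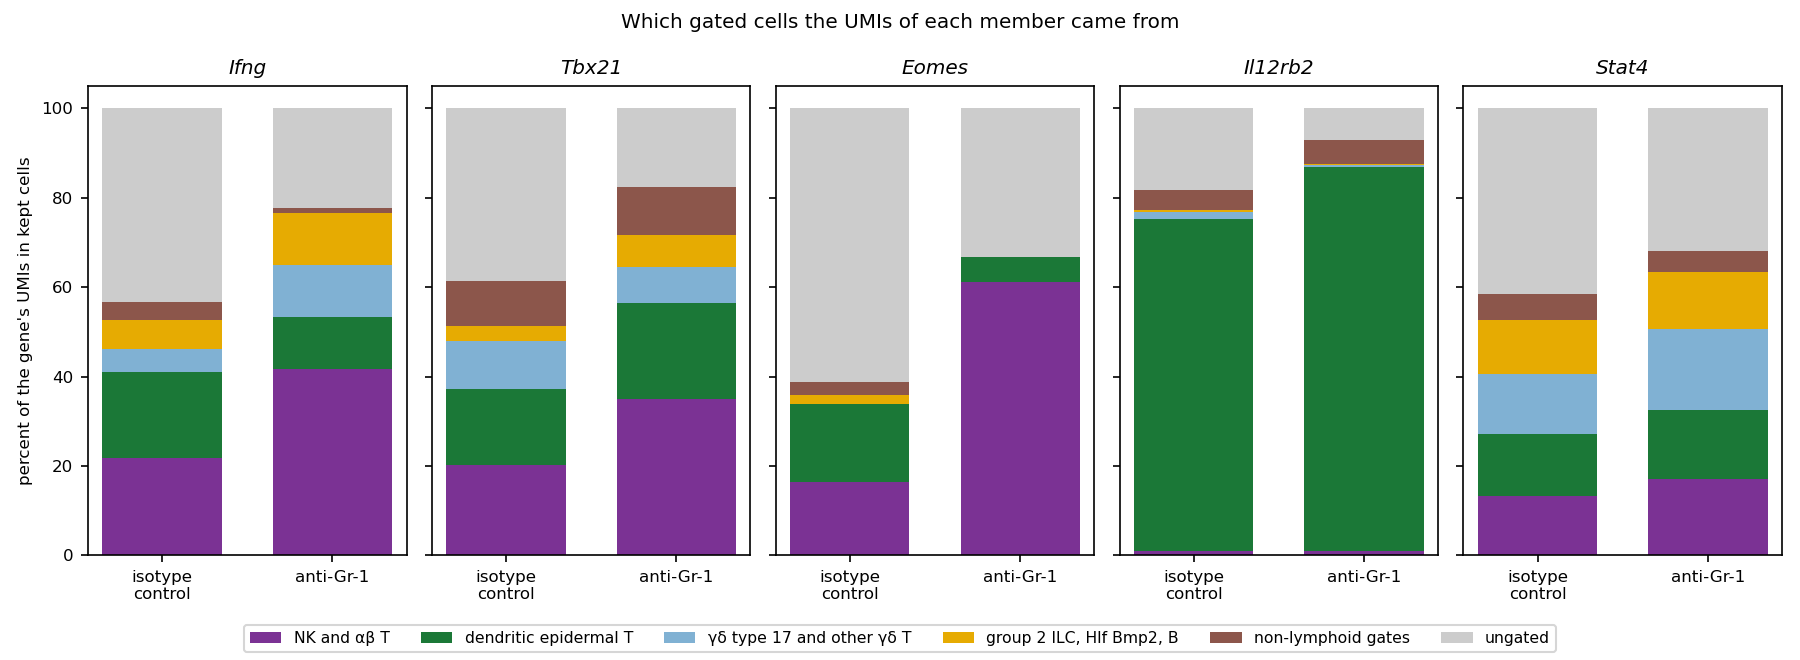
Percent of each gene's UMIs in kept cells (y axis) that came from each group of marker gates (colours) in the isotype control and anti-Gr-1 libraries. Dendritic epidermal T cells gave 74.3% and 85.9% of Il12rb2 but 19.2% and 11.6% of Ifng, and NK and αβ T cells together gave 21.8% and 41.7% of Ifng.

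A part of every gene's UMIs lay in cells outside the gates. Ungated cells held 43.3% (isotype control) and 22.4% (anti-Gr-1) of the Ifng UMIs, in 128 and 50 cells. Of these cells, 97 and 30 also held UMIs of Cd3d or Cd3e, which encode T cell receptor subunits. In 87 and 13 of them the non-lymphoid marker UMIs reached the limit of the gates. Eomes was outside the gates for 61.2% and 33.3% of UMIs. The share of cells left ungated was 40.8% (isotype control) and 20.5% (anti-Gr-1), and its part in the differences between the libraries was not tested.

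Ifng and Il12rb2 were mostly found in different cells. In isotype control cells thinned to 2000 UMIs, Il12rb2 was found in 3 of 70 Ifng-positive gated cells (4.29%, 0.893 to 12.02) and in 18.5% of Ifng-negative ones. The anti-Gr-1 values were 6 of 64 (9.38%, 3.52 to 19.3) and 16.1%. Within dendritic epidermal T cells, Ifng was found in 3 of 943 Il12rb2-positive and 16 of 1380 Il12rb2-negative isotype control cells, and in 4 of 599 and 7 of 853 anti-Gr-1 cells. Those shares have intervals that overlap in both libraries.

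Tbx21 and Stat4 were also looked for in cells with and without Ifng, thinned to 2000 UMIs. Among isotype control cells Tbx21 was in 8 of 70 with Ifng (11.4%, 5.07 to 21.3) and in 0.714% of the others, and Stat4 in 15 of 70 (21.4%, 12.5 to 32.9) and in 4.34%. Among anti-Gr-1 cells Tbx21 was in 3 of 64 (4.69%, 0.977 to 13.1) and in 0.716%, and Stat4 in 6 of 64 (9.38%) and in 5.27%. Thinned to 4000 UMIs, the anti-Gr-1 cells with Ifng were no longer the lower ones, with Tbx21 in 14 of 100 (14%, 7.87 to 22.4) against 1.47% of the others, and in 11 of 107 isotype control cells (10.3%, 5.24 to 17.7) against 1.31%. Among αβ T and NK cells alone, Tbx21 was in 6 of 30 isotype control cells with Ifng (20%, 7.71 to 38.6) and in 2.12% without. Among anti-Gr-1 cells it was in 1 of 41 (2.44%, 0.0617 to 12.9) and in 2.33%. These shares pool cells of several types and rest on 1 to 15 cells each.

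The comparison of the treatments asks whether type 1 genes differed in lymphocytes of skin in which Gr-1-bearing cells had been targeted. A ratio of anti-Gr-1 to isotype control CPM was called where it passed 1.5-fold with an interval that left out 1. Of 60 pairs of gene and gate, 31 had at least 20 UMIs over both libraries. Of those, 5 were called higher, 8 lower and 18 neither. Over all tested genes, 1.1% to 8.19% were called higher and 7.6% to 13.6% lower, depending on the gate. All 5 higher calls were Ifng, and the lower calls were 3 of Il12rb2, 3 of Stat4, 1 of Tbx21 and 1 of Eomes.

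Over all gated lymphoid cells, Ifng went from 15.4 to 23.3 CPM, a ratio of 1.51 (1.34 to 1.70). The ratio was 3.23 in cells with Xist alone and 3.24 in cells with no non-lymphoid marker UMI. In L9, which holds most Ifng UMIs and includes ungated cells, the level went from 247 to 184 CPM. Stat4 stayed at 29.8 CPM in both libraries, a ratio of 1.0003 (0.911 to 1.10), and Tbx21 had a ratio of 1.16 (0.917 to 1.47). After thinning, Ifng was found in 1.30% and 1.67% of gated lymphoid cells, a ratio of shares of 1.29 (0.901 to 1.83). NK and αβ T cells made up 4.32% of kept isotype control cells and 7.41% of kept anti-Gr-1 cells. Of the gated lymphoid cells they were 713 of 5697 and 561 of 3880. Over these NK and αβ T cells summed, Ifng went from 46.3 to 77.4 CPM, a ratio of 1.67 (1.40 to 1.99). Fewer cells of a type and less RNA per cell cannot be told apart in such sums.

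Within gates, CD8 T cells had an Ifng ratio of 4.504 (2.06 to 11.7), with Ifng found in 5 of 29 cells after the isotype antibody and in 17 of 37 after anti-Gr-1. In CD8 T cells, 7.43% of all tested genes were called higher and 8.29% lower. After thinning, 3.45% and 21.6% of CD8 T cells held Ifng, a ratio of shares of 6.27 with an interval from 0.841 to 278. In NK cells the ratio of Ifng was 1.69 (1.12 to 2.60), where 5.7% of tested genes were called higher and 8.3% lower. With at least 3 marker UMIs required, the NK ratio was 1.32 (0.864 to 2.05) and no longer called. The CD8 ratio was 5.16 without the top cell of each library, 12.54 after thinning and 1.53 (0.327 to 9.46) in cells with Xist alone. The CD8 cells lay in different clusters in the libraries, with 12 of 29 and 28 of 37 in L9, where Ifng was at 92.9 and 190 CPM. Mgl2, a dendritic cell gene, went from 4.71 to 85.2 CPM in the CD8 gate, and 2 anti-Gr-1 CD8 cells with Ifng held 63486 and 39296 UMIs. In the NK gate Cd74, an antigen presentation gene, went from 1930 to 3733 CPM. The part of these values in the ratios was not tested.

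In the 3 other gates called higher, 1 to 3 anti-Gr-1 cells held most of the UMIs. In the Hlf Bmp2 gate, 1 isotype control cell held 13 of 14 Ifng UMIs and 1 anti-Gr-1 cell held 47 of 48. The ratio of 2.94 became 0.859 without them, from 1 UMI left in each library, which gives no direction. In this gate 1.38% of tested genes were called higher. In regulatory T cells the top cells held 12 of 30 and 34 of 41 UMIs. The ratio there went from 1.93 to 0.549 without them, and 1.82% of tested genes were called higher and 9.42% lower. In γδ type 17 T cells, 1.72% of cells held Ifng in either library, 27 and 19 cells. Of 104 anti-Gr-1 UMIs, 76.9% lay in 3 cells with 40, 27 and 13. The cell with 27 also held 19 Il17a UMIs, the gene of the type 17 cytokine, and the other 2 held none. The ratio was 2.57 (1.80 to 3.73), against 1.26% of tested genes called higher, and 2.03 (1.33 to 3.17) without the top cell. It was 10.4 in cells with Xist alone and 0.796 in cells with Y-linked transcripts alone.

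**Figure D5:**
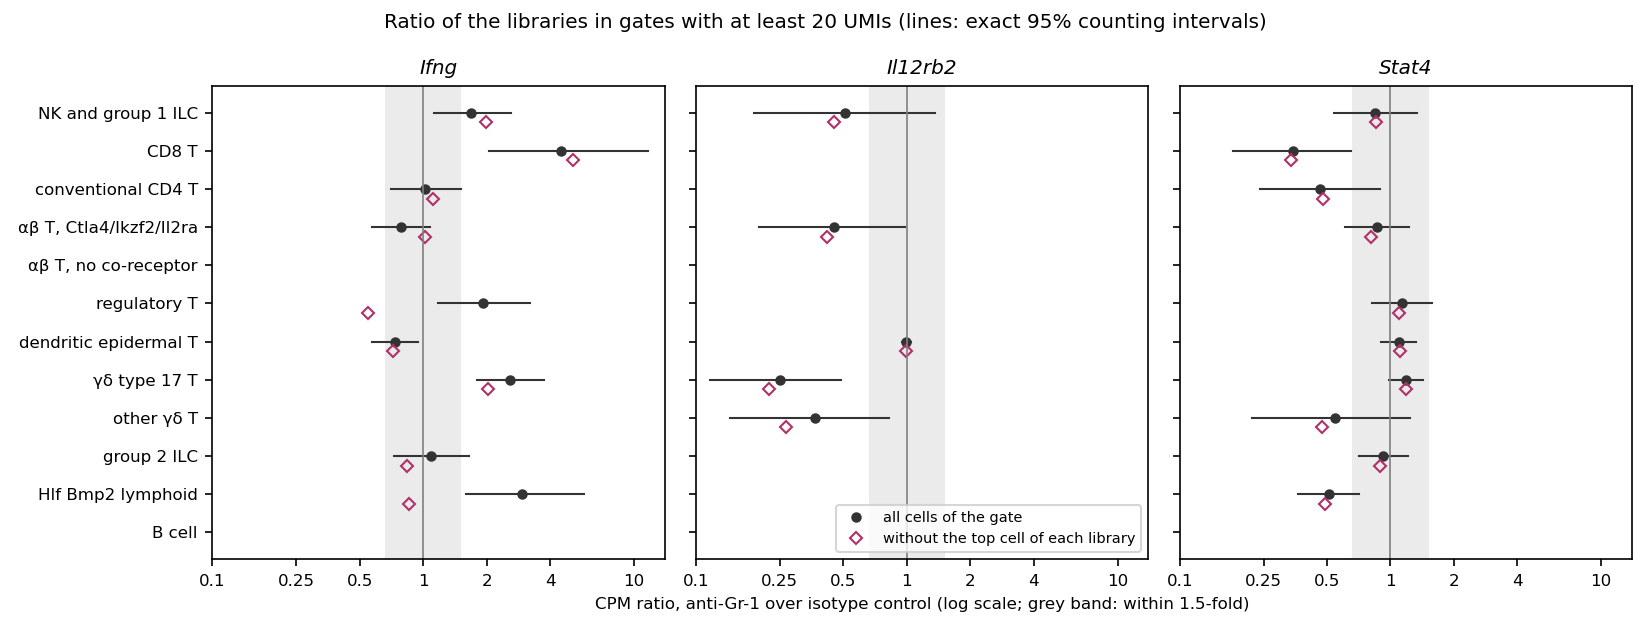
Ratio of anti-Gr-1 to isotype control CPM (x axis, log scale) of Ifng, Il12rb2 and Stat4 in each marker gate with at least 20 UMIs over both libraries (y axis), with exact 95% counting intervals, the grey band marking ratios within 1.5-fold and diamonds the ratio without the top cell of each library. The Ifng ratio of the Hlf Bmp2 gate moves from 2.94 to 0.859, with 1 UMI left in each library. That of regulatory T cells moves from 1.93 to 0.549, while Il12rb2 in dendritic epidermal T cells stands at 0.994.

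Conventional CD4 T cells showed no difference in Ifng past the threshold, with a ratio of 1.02 (0.705 to 1.51), where 2.26% of tested genes were called higher. It was 4.70 (1.18 to 40.9) in cells with no non-lymphoid marker UMI. By sex it was 0.138 (0.0454 to 0.357) in 13 and 16 cells with Xist alone and 2.28 (1.26 to 4.41) in 24 and 39 cells with Y-linked transcripts alone. In this gate 2 isotype control cells held 56.8% of the Ifng UMIs and 3 anti-Gr-1 cells held 71.6%, and their part in the ratios by sex was not tested. αβ T cells with Ctla4, Ikzf2 or Il2ra had 0.785 (0.573 to 1.08), where 1.8% were called higher. Group 2 innate lymphoid cells had 1.09 (0.725 to 1.65), where 2.3% of tested genes were called higher and 7.84% lower. No member reached 20 UMIs in αβ T cells without co-receptor UMIs, where 3.93% of tested genes were called higher and 11.5% lower, or in B cells, where 8.19% and 9.95% were. Dendritic epidermal T cells had 0.738 (0.573 to 0.946), which is within 1.5-fold, and 1.1% of tested genes were called higher there. When the same type was taken from clusters, its ratio was 2.17, from 2.96 and 6.43 CPM.

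Among single gates, Il12rb2 in dendritic epidermal T cells differed least, with a ratio of 0.994 (0.947 to 1.04) from 3876 and 2974 UMIs. It stayed between 0.893 and 1.03 under each of the 10 alternatives run on it. Its 3 lower calls were γδ type 17 T cells at 0.2497 (0.117 to 0.487), other γδ T cells at 0.368 (0.145 to 0.825) and αβ T cells with Ctla4, Ikzf2 or Il2ra at 0.451 (0.1995 to 0.978). The share of tested genes called lower in these gates was 8.44%, 13.6% and 10.5%, and in other γδ T cells 3.08% were called higher. Mast cells, which serve as a level of free RNA, were also lower for Il12rb2 in the anti-Gr-1 library, at 0.0680 (0.00162 to 0.438). The γδ type 17 values lie within the range of mast cells, macrophages and type 2 dendritic cells, so that call is not read as a difference in expression. αβ T cells with Ctla4, Ikzf2 or Il2ra, at 15.8 and 7.10 CPM, lie above that range. They lie below type 1 dendritic cells, at 18.5 and 17.8 CPM. The part of free RNA in this call and in that of other γδ T cells was not tested. Other γδ T cells had a median of 1819 (isotype control) and 7197 (anti-Gr-1) UMIs, so the gate held shallower cells in 1 of them.

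Stat4 was called lower in CD8 T cells at 0.345 (0.179 to 0.649), in conventional CD4 T cells at 0.465 (0.241 to 0.893) and in the Hlf Bmp2 gate at 0.509 (0.364 to 0.708). The background of lower calls was 8.29%, 10.2% and 8.49%. CD8 T cells held 27 UMIs in 13 of 29 cells and 18 in 12 of 37 cells, and conventional CD4 T cells held 22 in 13 of 47 and 20 in 11 of 70. CD8 T cells thus had Ifng called higher and Stat4 called lower. In the Hlf Bmp2 gate the Stat4 ratio was 0.856 when the type was taken from clusters. Stat4 was not called in NK cells (0.845, 0.542 to 1.33), regulatory T cells (1.13, 0.813 to 1.57), dendritic epidermal T cells (1.09, 0.905 to 1.32) or γδ type 17 T cells (1.19, 0.985 to 1.43). In thinned cells the share with Stat4 was 2.63% and 4.13% of dendritic epidermal T cells, a ratio of 1.57 (1.08 to 2.29), and 3.78% and 6.12% of γδ type 17 T cells, a ratio of 1.62 (1.12 to 2.35).

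The remaining lower calls were Tbx21 in NK cells, at 0.362 (0.156 to 0.801), and Eomes in dendritic epidermal T cells, at 0.144 (0.0162 to 0.601). In NK cells with Y-linked transcripts alone the Tbx21 ratio was 1.03 (0.195 to 10.1). In regulatory T cells Tbx21 had 4 and 12 UMIs, under the minimum for a call. The Eomes call rests on 18 and 2 UMIs and 7.6% of tested genes were called lower in that gate. Of its 18 isotype control UMIs, 13 lay in the L9 cells of the gate.

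The wider type 1 pathway was read from 58 listed genes. The receptor partners of Il12rb2 had their own distributions. Il12rb1, the shared chain of the receptors for interleukin-12 and interleukin-23, was at 43.7 and 34.9 CPM in dendritic epidermal T cells and at 45.0 and 36.9 CPM in γδ type 17 T cells. Il18r1, a chain of the interleukin-18 receptor that acts with interleukin-12 on Ifng, was at 68.0 and 57.3 CPM in dendritic epidermal T cells, the gate with most Il12rb2, against 344 and 282 CPM in γδ type 17 T cells and 290 and 208 CPM in NK cells. Within isotype control gated cells, Il18r1 was in 9.83% of Il12rb2-positive and 31.3% of Il12rb2-negative thinned cells. In dendritic epidermal T cells alone those shares were 8.70% and 11.6%. Ifngr1, the ligand-binding chain of the interferon gamma receptor, was at 609 and 526 CPM in γδ type 17 T cells and 94.1 and 82.4 CPM in dendritic epidermal T cells.

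Of the ligands, both subunits of interleukin-12 were scarce in the 4 non-lymphoid gates. Monocytes, neutrophils, Langerhans cells and mature dendritic cells had no gate, so their levels are not given. Il12b, the p40 subunit of interleukin-12, was at 2.85 and 0.523 CPM in type 1 dendritic cells and at most 0.222 CPM in type 2 dendritic cells and macrophages. Among the gates its highest level was 7.49 CPM, in isotype control group 2 innate lymphoid cells, where the anti-Gr-1 library had 0. Il12a, the p35 subunit, was at 0 to 0.408 CPM in the 4 non-lymphoid gates. In group 2 innate lymphoid cells it went from 0 to 25 UMIs (11.1 CPM), all in 1 cell. Il18, which encodes interleukin-18, was at 57.9 and 52.9 CPM in type 2 dendritic cells, 45.3 and 44.8 CPM in type 1 dendritic cells and 32.3 and 30.7 CPM in macrophages. Il15, a growth factor of NK cells, was at 10.6 to 21.6 CPM in the 4 non-lymphoid gates.

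Between the treatments, the counts of listed genes past 1.5-fold are set beside those of all tested genes, with no interval required. In dendritic epidermal T cells 0 of 48 tested list members were higher and 7 lower, with a median log2 ratio of -0.20, against 0.116% and 2% of all genes and a median of -0.10. The lower members included the chemokine genes Ccl3 (35.2 to 5.27 CPM) and Ccl4 (92.9 to 26.2 CPM), and Runx1 (21.8 to 7.505 CPM), a Runt factor. Runx3, the Runt factor that acts with T-bet, stayed at 767 and 661 CPM, and Prf1 at 466 and 425 CPM. In γδ type 17 T cells 2 of 50 were higher and 6 lower, with a median of -0.23, against 0.362% and 2.13% and a median of -0.12. Gzmb, which encodes granzyme B, went from 17.1 to 31.8 CPM and Hopx from 41.2 to 70.2 CPM. The interferon-inducible GTPase genes Gbp2 (33.2 to 18.1 CPM), Igtp (38.2 to 22.3 CPM) and Iigp1 (8.42 to 1.14 CPM) were lower, in the gate where Ifng was called higher. Other gates had such genes past 1.5-fold higher. Iigp1 went from 0.456 to 13.5 CPM in regulatory T cells, Cxcl10 from 69.8 to 117 CPM in group 2 innate lymphoid cells and from 63.1 to 144 CPM in other γδ T cells, and Gbp2 from 18.0 to 60.1 CPM in other γδ T cells.

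In conventional CD4 T cells 0 of 36 list members were higher and 17 lower, with a median of -0.47, against 7.54% and 19.2% of all genes and a median of -0.13. Igtp went from 108 to 51.6 CPM, Il2rb from 222 to 124 CPM and Ccl5 from 104 to 12.04 CPM. With at least 50 UMIs required, 7 were lower, and the share over all genes at that setting is not given. In CD8 T cells 7 of 35 were higher and 7 lower, against 16.3% and 16.5%. Gzmb went from 132 to 382 CPM and Ccl4 from 94.1 to 187 CPM, while Ccl5 went from 2871 to 679 CPM and Gzma from 1351 to 589 CPM. In NK cells 2 of 31 were higher and 9 lower, against 15.1% and 17.2%, and Prf1 went from 216 to 92.6 CPM.

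Regulatory T cells had 4 of 45 list members higher and 5 lower, against 1.88% and 9.73% of all genes. Gzmb went from 368 to 572 CPM and Batf, a factor of effector T cells, from 80.7 to 145 CPM, while Ccl3 went from 139 to 8.37 CPM. Group 2 innate lymphoid cells had 4 of 47 higher and 3 lower, against 2.17% and 6.93%, with Ccl3 going from 199 to 582 CPM. The gate also took in cells of a cluster led by Ccl3 and Ccl4, with the basophil marker Mcpt8 among its top genes. Of the 157 cells of that cluster, 12.1% fell into lymphoid gates, and 52.6% of those into this gate. Their part in the Ccl3 values was not tested. The Hlf Bmp2 gate had 1 of 46 higher and 12 lower, against 0.865% and 4.69%, among them Cxcl10 (117 to 38.5 CPM) and Gbp2 (34.0 to 15.8 CPM). αβ T cells with Ctla4, Ikzf2 or Il2ra had 2 of 45 higher and 8 lower, against 2.58% and 11.6%. The remaining gates were small. αβ T cells without co-receptor UMIs had 3 of 25 higher and 5 lower, against 8.34% and 23.6%. Other γδ T cells had 5 of 34 and 7, against 6.87% and 25%, and B cells 2 of 7 and 2, against 14.5% and 25.3%.

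Genes with a pattern like each member were sought over 8 gates in both libraries, 16 points, among 7224 genes, by Pearson's r of log2(CPM + 5). Gates needed 30 cells in each library, which left out NK and CD8 T cells, so the gate with the highest Ifng, Tbx21, Eomes and Stat4 does not enter. The points of a library share its depth and free RNA, so r is a description. Il12rb2 was most like Prf1 (r = 0.991), Kir3dl2 (0.986), Usp24 (0.984), Trpm6 (0.982) and Avil (0.982). It was at 304 and 302 CPM in dendritic epidermal T cells and at most 65.4 CPM in the other gates compared. Its r is therefore set largely by that gate. Ifng was most like Actn1 (0.841), Arpc4, Hist1h4c, S1pr1 and Dnajc15. Tbx21 was most like Fas (0.875), Gimap4, Ifng (0.789), Hist1h4c and Ifi47. No similar genes are given for Eomes, which was at 0 at 11 of the 16 points. Stat4 was most like Adk (0.820), Itga1, Aspscr1, Isg20 and Itgb2.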

How the data were processed

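The 2 matrices of UMI counts, 1 per treatment, were used as the authors deposited them: whole-number counts per gene and barcode from Cell Ranger 4.0.0, per the file headers, with mm10 named in the submitters' processing notes. Chromium 3′ v2 chemistry was used, per the labels. Antibody-derived tags were not used. No column of other samples was present (0).

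A barcode passed with a mitochondrial share below 10%, 500 UMIs or more and 200 genes or more, which left 19542 and 8047. Doublets were scored with Scrublet per library. Its automatic threshold marked 32.8% of isotype control barcodes, above the limit of 25%, so there the 3055 with the highest score were removed, 0.8% per 1000 barcodes. For anti-Gr-1, 473 were removed by the automatic threshold. Shared barcodes numbered 61, of which 44 were among kept cells, and were retained.

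Gates used raw UMIs. T cell gates needed at least 2 UMIs of Cd3d, Cd3e and Cd3g and fewer than 10 non-lymphoid marker UMIs per 10000. γδ, αβ, CD8, CD4 and regulatory gates were set on Trdc, Trac, Cd8a or Cd8b1, Cd4 or Cd40lg, and Foxp3. NK, group 2 and Hlf Bmp2 gates needed at least 2 marker UMIs and no Trac, Cd3d or Cd3e UMI. Cd3g, Trbc1, Trbc2 and Trdc were not limited there. Thresholds were set after cells had been seen. The 5 genes and all lists were chosen with earlier results of these data known.

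UMIs were summed per gate and library. Ratios needed 20 UMIs over both libraries and a fold of 1.5, on CPM for members and on CPM + 5 for lists. Shares of cells were also taken after thinning to 2000 UMIs. Clustering without the members used 2000 variable genes, 30 components, 15 neighbours and resolution 1. Genes named beside the members came from the pathway list, past 1.5-fold or as parts of the receptor and ligand sets, and as the 5 most similar by r. Intervals cover counting error only. The code was tested on simulated counts. Tools were pandas 2.3.3, scipy 1.17.1, igraph 0.11.9, scanpy 1.11.5, numpy 2.4.6, matplotlib 3.10.9, anndata 0.12.19 and Python 3.11.15.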

Additional observations from a re-analysis of the deposited data

Results flagged for a closer look

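The Ifng ratio of anti-Gr-1 to isotype control in conventional CD4 T cells pointed in opposite directions by sex. It was 0.138 in cells with Xist alone and 2.28 in cells with Y-linked transcripts alone, and the difference between these ratios was not tested. The ratios rest on 13 and 16 cells with Xist alone and 24 and 39 with Y-linked transcripts alone, in a gate where 2 and 3 cells carry 56.8% and 71.6% of the Ifng UMIs.

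Stat4 was also found in cells outside the gates compared. A cluster led by Fscn1, Ccr7 and Ccl22, genes of mature dendritic cells, held Stat4 at 94.1 CPM in 277 isotype control cells and at 88.3 CPM in 94 anti-Gr-1 cells, above the type 2 dendritic cell gate at 2.93 and 2.38 CPM. It carried 10.98% and 9.34% of all Stat4 UMIs.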

How the results depend on the processing

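Leaving out a replicate was not possible with 1 library per treatment. No paired analysis was possible because each treatment is 1 library. The cause of the changes below was not tested. Where a pair is given, the isotype control value comes first.

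In cells with Xist alone the Ifng ratio was 5.90 in NK cells, 1.53 in CD8 T cells, 0.138 in conventional CD4 T cells, 2.68 in dendritic epidermal T cells, 10.4 in γδ type 17 T cells and 3.23 over all gated lymphoid cells. Ifng was then at 61.9 CPM in isotype control NK cells and at 6.65 and 17.8 CPM in dendritic epidermal T cells. In dendritic epidermal T cells the Il12rb2 ratio was 0.893, with 274 CPM in the anti-Gr-1 library, and the Tbx21 ratio 0.715. In cells with Y-linked transcripts alone the Ifng ratio was 2.28 in conventional CD4 T cells and reversed to 0.796 in γδ type 17 T cells, 0.122 in regulatory T cells and 0 in the Hlf Bmp2 gate. The Tbx21 ratio of NK cells turned to 1.03, and Ifng in dendritic epidermal T cells was at 7.41 and 6.37 CPM.

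In cells with no non-lymphoid marker UMI the Ifng ratio was 4.70 in conventional CD4 T cells, 0.430 in dendritic epidermal T cells and 3.24 over all lymphoid cells. Ifng was at 434 CPM in anti-Gr-1 NK cells and at 6.01 and 2.58 CPM in dendritic epidermal T cells, where Il12rb2 was at 289.8 CPM in the isotype control and the ratios of Stat4 and Tbx21 were 1.51 and 0.526.

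Thinned to 2000 UMIs, the Ifng ratio was 12.5 in CD8 T cells, 1.20 in dendritic epidermal T cells, 1.74 over all lymphoid cells and, reversed, 0.664 in regulatory T cells. Ifng was at 463 CPM in anti-Gr-1 NK cells and at 8.61 CPM in isotype control dendritic epidermal T cells, where the ratios of Stat4 and Tbx21 were 1.48 and 0.758. Thinned to 4000 UMIs, Tbx21 was in 14.0% of anti-Gr-1 cells with Ifng.

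With types taken from clusters, the Ifng ratio was 2.17 in dendritic epidermal T cells (2.96 and 6.43 CPM), 2.14 over all lymphoid cells and, reversed, 0.450 in the Hlf Bmp2 type. Dendritic epidermal T cells then gave 3.97% and 7.04% of Ifng UMIs and 75.5% of isotype control Il12rb2 UMIs, with Il12rb2 at 315 CPM there and a Tbx21 ratio of 0.724. With doublets kept they held Il12rb2 at 279 and 286 CPM and gave 63.8% and 78.3% of its UMIs. With equal weight for each cell, Ifng was at 290 and 432 CPM in NK cells and 9.67 CPM in isotype control dendritic epidermal T cells, and its ratio was 0.700 in conventional CD4 T and 1.08 in dendritic epidermal T cells. Without the top cell of each library, chosen after seeing the data, the Ifng ratio reversed to 0.549 in regulatory T cells. In the Hlf Bmp2 gate it was 0.859, from 1 UMI left in each library, which gives no direction.

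With at least 50 UMIs per gene, list genes past 1.5-fold were 0 higher in NK cells (2 at 20 UMIs), 2 higher in regulatory T cells (4) and 7 lower in conventional CD4 T cells (17). With a pseudocount of 1 CPM, 11 were lower in dendritic epidermal T cells (7 at 5 CPM) and 10 in γδ type 17 T cells (6). The numbers tested and the shares over all genes at these settings are not given. These counts are therefore not set against a background. The gates of NK, CD8 and conventional CD4 T cells held 26 to 70 cells in a library, which limits their precision.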
